A study of Homo sapiens with 16 samples.

Results

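The regions described here are the 1000 strongest TOP2A cleavage cluster regions of vehicle-treated K562 cells on chromosomes 1 to 22, out of 296907 vehicle regions on these chromosomes. They were chosen by the value the authors deposited with each region, the highest one where a region carried several, with ties ordered by width and then by position. They hold 2.75% of the summed highest values of the list. K562 is an established human myeloid leukaemia line. The study immunocaptured TOP2A from sonicated lysates, released the bound DNA and sequenced it. The vehicle list is tied by its labels to 3 libraries from cells in 0.05% DMSO for 1 or 4 h, the labels not saying which library had which time, and all 3 were amplified before library preparation. The lists compared with it come from cells given 25 µM etoposide (3 amplified libraries), 50 µM genistein (2) or 2 µM mitoxantrone (1) for 1 h, or 8 µM p-benzoquinone (2) for 4 h, each in 0.05% DMSO. Every list is the authors' pool of its libraries, so a region has no replicate value, and what follows is a description of 5 lists without p-values. Doses and times differ between the poisons, so their values are set side by side and not compared.

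DNA topoisomerase II relieves knots and supercoils by cutting both strands of one duplex, passing another through and sealing the cut. While the cut is open the enzyme is held covalently on both DNA ends, a state called the cleavage complex. The alpha isoform, TOP2A, serves dividing cells. Poisons such as etoposide and mitoxantrone act by keeping this complex from resealing, and vehicle-treated cells hold those complexes that form without a poison. A place of strong vehicle signal is therefore a natural one to look for in poison lists, and the comparisons below ask how often the strongest vehicle regions recur there and where they lie in the genome.

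Few of the strongest regions lay over promoter windows, as was so across the vehicle list, whose share lay inside the interval for the strongest. A promoter window, taken as 250 bases before to 50 bases after a RefSeq start site (GRCh38.p14), was overlapped by 3 of the 1000 regions, or 0.3% (exact 95% binomial interval 0.0619 to 0.874), beside 0.507% of all vehicle regions. The 3 windows belong to the NAD kinase gene NADK (minus strand, chr1:1780032-1780281), the antisense RNA gene SRGAP3-AS2 (plus strand, chr3:9192243-9192492) and the long noncoding RNA gene LINC02998 (minus strand, chr5:54744259-54744508). The 250 bases before each start are printed because these are the only promoter windows the strongest regions overlap, 5′ to 3′ on the gene's strand, with capitals for the bases inside the region.
NADK: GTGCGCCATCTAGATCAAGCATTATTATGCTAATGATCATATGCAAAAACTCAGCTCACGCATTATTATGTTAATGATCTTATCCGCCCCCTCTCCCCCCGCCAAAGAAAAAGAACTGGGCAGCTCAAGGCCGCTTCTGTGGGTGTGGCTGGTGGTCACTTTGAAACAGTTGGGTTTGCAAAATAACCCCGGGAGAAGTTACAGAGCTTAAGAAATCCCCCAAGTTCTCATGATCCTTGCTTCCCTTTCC
SRGAP3-AS2: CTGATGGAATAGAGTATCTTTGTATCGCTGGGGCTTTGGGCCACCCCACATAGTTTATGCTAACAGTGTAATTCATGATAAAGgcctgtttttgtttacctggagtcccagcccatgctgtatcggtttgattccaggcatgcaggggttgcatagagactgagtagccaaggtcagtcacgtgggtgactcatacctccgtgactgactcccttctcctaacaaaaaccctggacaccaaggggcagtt
LINC02998: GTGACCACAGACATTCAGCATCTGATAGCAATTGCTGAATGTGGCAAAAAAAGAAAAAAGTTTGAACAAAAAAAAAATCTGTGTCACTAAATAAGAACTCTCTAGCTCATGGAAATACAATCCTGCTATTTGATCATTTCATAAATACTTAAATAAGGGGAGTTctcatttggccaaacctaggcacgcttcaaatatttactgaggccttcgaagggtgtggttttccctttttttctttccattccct
The NADK region (chr1:1779389-1780380, value 90.67) was, at 992 bp, the widest of the 1000 and covered all 250 bases. This start site lies inside the annotated gene, which runs from 1751232 to 1780514. The SRGAP3-AS2 region (value 65.66) covered 83 of the 250 bases and the LINC02998 region (value 63.62) covered 164, and both stopped short of the start site, which the NADK region covered. None of the 3 regions overlapped a region of any poison list, as 75.4% of all vehicle regions do not. The GC share of the 300-base windows was 48% for NADK, 49% for SRGAP3-AS2 and 39.7% for LINC02998, beside a median of 52.7% over 1648 windows with any vehicle region and 58.7% over all 33725 windows. Each window was searched on both strands for 4 motifs. The NADK window held the GC box (GGGCGG), which 45% of all windows hold. The SRGAP3-AS2 window held the E-box (CACGTG), as 7.18% of all windows do. The TATA box (TATAAA), found in 11.6% of all windows, was in none of the 3. The ETS motif (CCGGAAG), found in 10.3%, was in none of them either.

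Of the 1000 strongest regions 1 overlapped a microRNA hairpin, beside 43 of all 296907 vehicle regions. This member lay on chromosome 19 from 53671886 to 53672064 with a value of 72.07. It held all of MIR1323, whose mature form is printed with its seed, bases 2 to 8, in capitals.
hsa-miR-1323: uCAAAACUgaggggcauuuucu
MIR1323 belongs to the large primate microRNA cluster of chromosome 19, known for its expression in placenta. No poison list had a region over this vehicle region, as is so for 75.4% of all vehicle regions.

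The deposited values of the 1000 regions ran from 62.26 to 195.29 with a median of 72.43, whereas the median over all vehicle regions was 6.09. Only 80 of them reached 100 and 11 reached 150. The plot of value by rank falls steeply over these few and then flattens. At the threshold 9 regions shared the value 62.26, of which 6 were inside and 3 outside, decided by width (214 bp for the last region inside and 183 bp for the first outside), and the next value down was 62.24. The strongest regions were also wide: their median width was 193 bp (38 to 992 bp) beside 153 bp over the vehicle list, and 302 of them, or 30.2%, were wider than 300 bp beside 5.33% of the list. Width belongs to the same measurement as the value that chose the regions and carries no test. Widths fell into a dense group at 200 bp or less, with 534 regions, and a long tail of 466 wider ones.

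**Figure D1:**
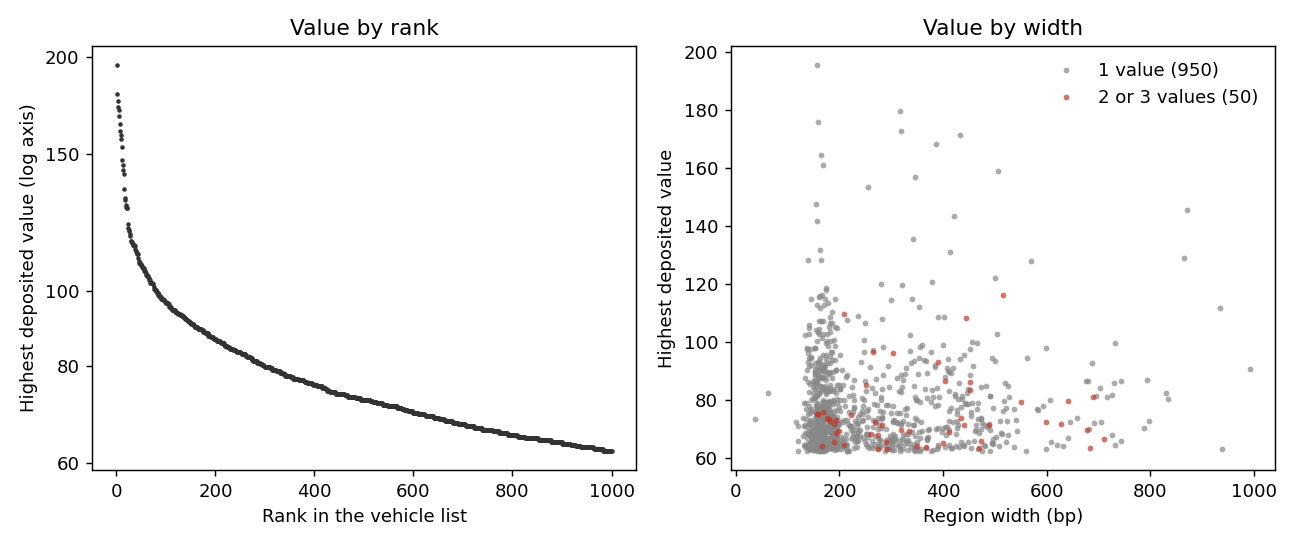
Left, the highest deposited value (log axis, no stated unit) of each of the 1000 strongest vehicle regions by rank. Right, the same value by region width in bp, with regions of 1 value in grey (950) and of 2 or 3 values in red (50); most points crowd at 200 bp or less, and the highest values occur both there and in wider regions.

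The strongest region, on chromosome 5 from 155541192 to 155541348, had the value 195.29 in 157 bp and lay 186.5 kb from the nearest protein-coding gene, SGCD, which encodes delta-sarcoglycan of muscle. The second, at 179.39, lay in the long noncoding RNA gene LINC01192 on chromosome 3 (163303135 to 163303450), 1675.4 kb from a protein-coding gene. The third, at 175.64 on chromosome 8 (135174761 to 135174918), was 282.5 kb from KHDRBS3, an RNA-binding protein gene. Of the first 20 regions, those inside protein-coding genes were in GEMIN5 (value 160.78), whose product helps assemble splicing particles, TEX14 (158.74), which is needed for intercellular bridges in germ cells, and MPP7 (156.71), a cell polarity gene. Further ones were in ADGRV1 (145.51), the large adhesion receptor gene mutated in Usher syndrome, C8orf34 (141.49) and MACROD2 (128.92), a long fragile-site gene. The others lay between protein-coding genes, up to the 1675.4 kb of the second. Most of these first regions had no counterpart in a poison list, as is so for 75.4% of all vehicle regions. The seventh, in MIR3976HG on chromosome 18 (5781390 to 5781554, value 164.17), was met by a mitoxantrone region of value 26.58. The region 54.6 kb from MOCS2 on chromosome 5 (53164387 to 53164799, value 130.97) was met by an etoposide region of 13.24 and a genistein region of 44.12.

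Nearly all of these values lay on 1 spacing. Vehicle values come in whole multiples of a step, and the list holds a coarse step and a fine one, 0.2313. The coarse step, 0.3384, was fitted on weaker vehicle regions with a value of at least 15. Of the 1000 strongest values 979, or 97.9%, lay within 0.03 of a whole number of coarse steps, where values without steps would do so in 17.7%. The remaining 21 were off by at most 0.06, and 12 of these had values of at least 100. The lowest of the 1000 values was 184 coarse steps and the highest 577. Weaker regions were on the coarse step as well, 99% of those with a value of at least 10, but none of those under 3 were. The highest values on the fine step were far lower: the strongest 1000 of that kind, in a selection added after seeing the data, started at 9.02 and had a median of 9.95, and 1 of them was among the members. So the ranking by value drew almost wholly on coarse-step values. No library was assigned to a step.

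Few of these places carried more than 1 value. The authors' list gave 2 or 3 values for 50 of the 1000 regions, or 5%, beside 2.45% of the vehicle list. Of the 51 additional values in them, 50 lay on the fine step, of which 6 lay on the coarse step too, where 13% of values without steps would lie on the fine one. These additional values were low, from 1.84 to 19.46 with a median of 3.01, and 1 of them reached 10. A strong coarse value thus stood beside a weak fine one. An example is the region on chromosome 14 from 34206355 to 34206563, with values of 109.32 and 6.25. Regions of 1 value made up the other 950.

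The main comparison asks whether the strongest vehicle regions recurred in poison-treated cells more often than vehicle regions in general. With an overlap of at least 1 bp they did so about as often as the rest, although they are wider. With 150 bp windows at the midpoint their share was below the vehicle list's in all 4 lists. There the interval left out the vehicle share for genistein only. Of the 1000 regions 57, or 5.7% (exact 95% binomial interval 4.35 to 7.32, for counting error only), overlapped an etoposide region by at least 1 bp, beside 4.97% of all vehicle regions. For genistein the number was 81, or 8.1% (6.48 to 9.97), beside 9.13%. For mitoxantrone it was 48, or 4.8% (3.56 to 6.31), beside 4.66%. For p-benzoquinone it was 104, or 10.4% (8.58 to 12.5), beside 9.3%. Each interval included the share over the whole vehicle list at this 1 bp setting. Another ranking gave lower shares. It took the 1000 regions highest in summed value per base, of which 458 are members. Their median width was 138 bp beside the members' 193 bp. They overlapped etoposide in 2.4%, genistein in 4.8% and p-benzoquinone in 6.3%, below both the vehicle list and the members' intervals. Their mitoxantrone share of 3.9% was below the vehicle list's 4.66% but inside the members' interval. The poison lists differ in length, which sets how often each is met, so the 4 shares are not ranked against each other. Seen from the poison side, the regions overlapping one of the 1000 were 0.0328% of the etoposide list, 0.0207% of genistein, 0.0249% of mitoxantrone and 0.0308% of p-benzoquinone.

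**Figure D2:**
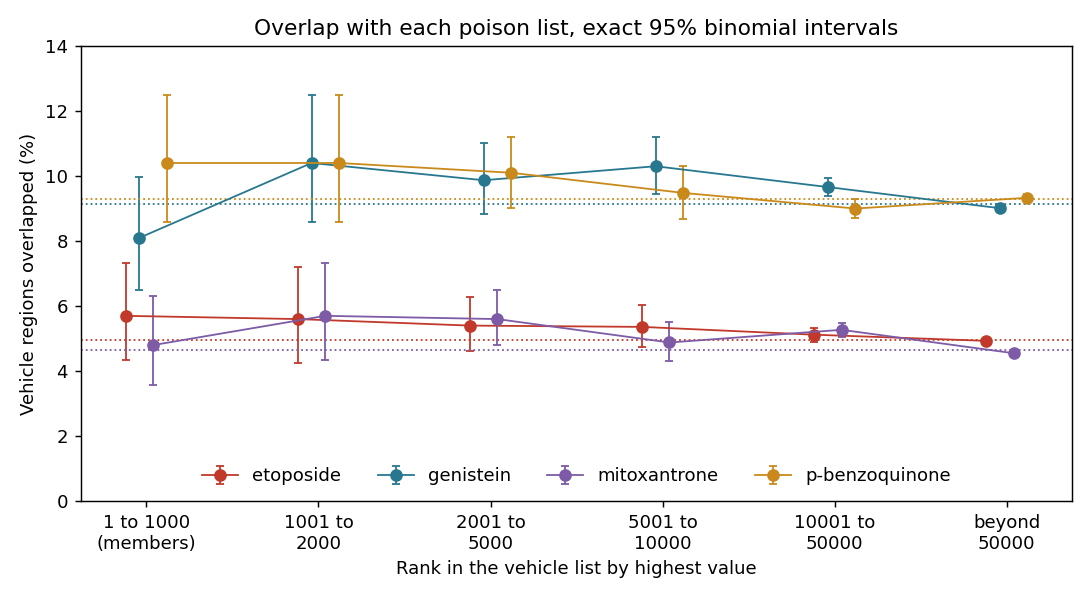
Share of vehicle regions overlapping a region of each poison list (%, vertical axis) by rank in the vehicle list (horizontal axis); bars are exact 95% binomial intervals and dotted lines the share over all vehicle regions. The members' points, 4.8% to 10.4%, have intervals that take in their dotted lines, and the other rank classes lie close to them.

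Overlap differed by a few percentage points at most along the ranking. For etoposide the share was 5.6% in the 1000 regions ranked next, 4.93% in the 246907 lowest regions and 5.12% in the 40000 just above those. For p-benzoquinone it was 10.4%, 9.33% and 9% in the same classes. For genistein the members' 8.1% stood beside 10.4% in the next 1000 regions, with intervals that overlap, and 10.3% in a later class of 5000 lay above the members' interval. For mitoxantrone the share was 5.27% (5.05 to 5.49) in the 40000 regions and 4.55% (4.46 to 4.63) in the 246907 lowest, with intervals that do not overlap. Within the members the first 100 overlapped 1 or more lists in 19 cases (19%, interval 11.8 to 28.1), the 400 that follow in 98 (24.5%) and the last 500 in 130 (26%).

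Under other definitions of overlap every interval took in the vehicle share for mitoxantrone and p-benzoquinone, and most did for etoposide and genistein. When 50% of the shorter region had to be shared, the members' shares were 4.9% (3.65 to 6.43) for etoposide beside 3.61% of the vehicle list, 6.5% for genistein beside 6.5%, 4% for mitoxantrone beside 3.31% and 7.2% for p-benzoquinone beside 6.63%. With each vehicle region replaced by 150 bp at its midpoint they were 4.2% beside 4.78%, 6.7% (5.23 to 8.43) beside 8.8%, 3.9% beside 4.5% and 7.9% beside 9.01%, in the same order. Poison regions with a value of at least 4 gave 4.1% beside 3.88%, 8% beside 9%, 4.8% beside 4.6% and 6.9% beside 6.01%. Those with a value of at least 8 gave 3% beside 2.37%, 7% beside 7.17%, 4.2% beside 3.71% and 3.4% beside 2.52%. The cut at 4 removed few genistein or mitoxantrone regions, whose lowest values over vehicle regions were 3.72 and 3.87, so it could change little there. Vehicle regions of at most 300 bp gave 3.87% beside 4.72%, 6.02% (4.37 to 8.05) beside 8.78%, 4.44% beside 4.48% and 8.74% beside 8.95%. Vehicle regions with 1 value gave 5.37% beside 4.86%, 7.79% beside 9.02%, 4.74% beside 4.6% and 10% beside 9.09%. The interval left out the vehicle share in 3 of these cases. Etoposide was higher with 50% shared, and genistein was lower with the midpoint window and with regions of at most 300 bp. The intervals are not adjusted for the number of settings, and etoposide's lower limit of 3.65 stood close to the 3.61%.

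Altogether 247 of the 1000 regions, or 24.7%, met 1 or more poison lists, beside 24.6% of the vehicle list, and 753 met none. Those meeting 2 or more numbered 40 when the 37 in 2 lists and the 3 in 3 lists are put together, beside 3.22% of the vehicle list. Among the 37 the most frequent pair was genistein with p-benzoquinone (9 regions, 0.9% of members beside 0.847% of the vehicle list). Etoposide with genistein came next (8, 0.8% beside 0.505%). Etoposide with mitoxantrone had 7, or 0.7%, beside 702 of the 296907 vehicle regions, the fewest of any pair there. No member met all 4 lists, beside 33 such regions, or 0.0111%, of the vehicle list. Taking a count of 0 to allow up to 3, the share among the 1000 regions could be up to 0.3%.

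The 3 regions in 3 poison lists, beside 0.25% of vehicle regions in 3 or more, all lay in protein-coding genes. Of all vehicle regions 47.5% do. All 3 were wider than 300 bp, as 30.2% of members were. One was in PRLR, the prolactin receptor gene, on chromosome 5 from 35063313 to 35063919, with a vehicle value of 79.83. It met an etoposide region of 15.61, a genistein region of 43.76 and a p-benzoquinone region of 12.30, which ranked at percentiles 84.6, 95.5 and 90.1 of their own lists. The second was in CNIH3, a gene for an auxiliary glutamate receptor subunit, on chromosome 1 from 224720899 to 224721575, with a vehicle value of 69.37. Its etoposide value of 3.72 was at percentile 16.9, its mitoxantrone value of 30.14 at 86.7 and its p-benzoquinone value of 8.21 at 77. The third was in MYCBP2, a ubiquitin ligase gene, on chromosome 13 from 77098485 to 77098888, with a vehicle value of 63.60. Its values of 2.74 under etoposide, 4.65 under genistein and 19.12 under mitoxantrone were at percentiles 11.1, 3.64 and 68.9. So the PRLR region was high in all 3 lists that held it, while the others were low in at least 1.

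Poison regions at these places were of middling strength. Those over the strongest vehicle regions had a median percentile of 57 within the etoposide list, 61 within genistein, 61.7 within mitoxantrone and 57.5 within p-benzoquinone. Those over any vehicle region were at 49.7, 54.1, 53.3 and 52.7. In the lists' own values, the etoposide regions over members ran from 1.82 to 40.43 with a median of 8.48, and the genistein regions from 3.94 to 110.85 with a median of 15.78. The mitoxantrone regions ran from 4.53 to 75.53 with a median of 16.53, and the p-benzoquinone regions from 1.82 to 28.74 with a median of 5.67. The strongest of each poison list were compared too. Of the 1000 strongest regions of each poison, 2 genistein regions overlapped a strongest vehicle region, and 0 did for etoposide, mitoxantrone and p-benzoquinone. The strongest 1000 are 0.575% of the etoposide list, 0.246% of genistein, 0.518% of mitoxantrone and 0.288% of p-benzoquinone, so at these shares under 1 would fall among the 57, 84, 48 or 107 poison regions over members in each list, and nothing is read from the counts. The 2 were in MYO18A, an unconventional myosin gene, on chromosome 17 (29136974 to 29137414, vehicle 63.96 and genistein 110.85), and 3.18 kb from PTPN2, a tyrosine phosphatase gene, on chromosome 18 (12887416 to 12887644, vehicle 77.48 and genistein 108.83).

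Only the mitoxantrone list carries an input value, a measure from DNA without immunocapture. At the 48 mitoxantrone regions over members its median was 0.47 (0.00 to 3.78), beside 0.23 over any vehicle region and over the whole list on these chromosomes. It was 0 at 11 of the 48, or 22.9%, beside 17.6% at mitoxantrone regions over any vehicle region and 22% over the whole list. What this higher median contributes to the overlap was not tested.

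Wider regions are met more often by any list, and the strongest regions are wide. Members were therefore also compared within width classes, at most 200 bp and over 200 bp. Among the 534 members of at most 200 bp, 25 overlapped a genistein region, or 4.68% (3.05 to 6.83), beside 8.47% of the 255114 vehicle regions of that width. The etoposide share was 3.93% (2.45 to 5.95) beside 4.51%, the mitoxantrone share 4.31% (2.75 to 6.39) beside 4.3%, and the p-benzoquinone share 8.05% (5.89 to 10.7) beside 8.56%. Among the 466 wider members the shares were 7.73% for etoposide beside 7.81%, 12% for genistein beside 13.2%, 5.36% for mitoxantrone beside 6.88% and 13.1% for p-benzoquinone beside 13.8%. The interval left out the share of the same width class of vehicle regions in 1 of these 8 cases. That case was the narrow members in genistein, where the members' share lay below. The class over 200 bp did not hold width alike: 302 of its 466 members exceeded 300 bp, beside 15821 of its 41793 vehicle regions. Over 300 bp the shares were 9.93% for etoposide beside 9.5% and 12.9% for genistein beside 15.4%. They were 5.63% for mitoxantrone beside 7.99% and 14.2% for p-benzoquinone beside 15.6%, and each interval took in the vehicle share.

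**Figure D3:**
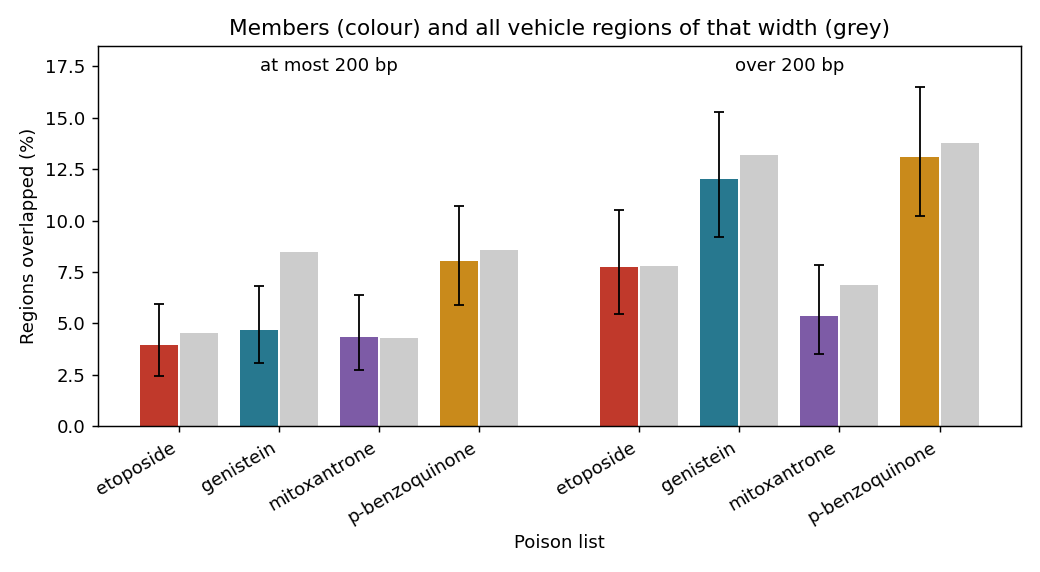
Share of regions overlapping each poison list (%), for members (coloured bars with exact 95% binomial intervals) and for all vehicle regions of the same width class (grey bars), at most 200 bp on the left and over 200 bp on the right. The genistein bar of narrow members, 4.68%, stands below its grey bar of 8.47%; the other 7 intervals take in their grey bars.

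Around the strongest regions the poison lists covered more at the midpoint than at 1 to 3 kb, as around vehicle regions in general. Single bins of the member profiles varied, so a narrow peak was not clear in every list. For genistein a 100 bp bin in the flanks reached 4.1%, near its highest midpoint bin of 4.17%. Within 100 bp of the midpoint of members, etoposide regions covered 2.38% of bases, against 1.25% at 1 to 3 kb away, a ratio of 1.9. Genistein covered 4.04% against 2.99% (1.35), mitoxantrone 2.38% against 1.32% (1.8) and p-benzoquinone 4.58% against 2.6% (1.76). Over all vehicle regions the ratios were 2.32, 1.89, 1.95 and 1.99. Cover at the midpoint was thus lower around members than around vehicle regions in general in all 4 lists, while the flanks were about level. No interval was computed for these ratios, and the lists' ratios share the same vehicle regions.

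**Figure D4:**
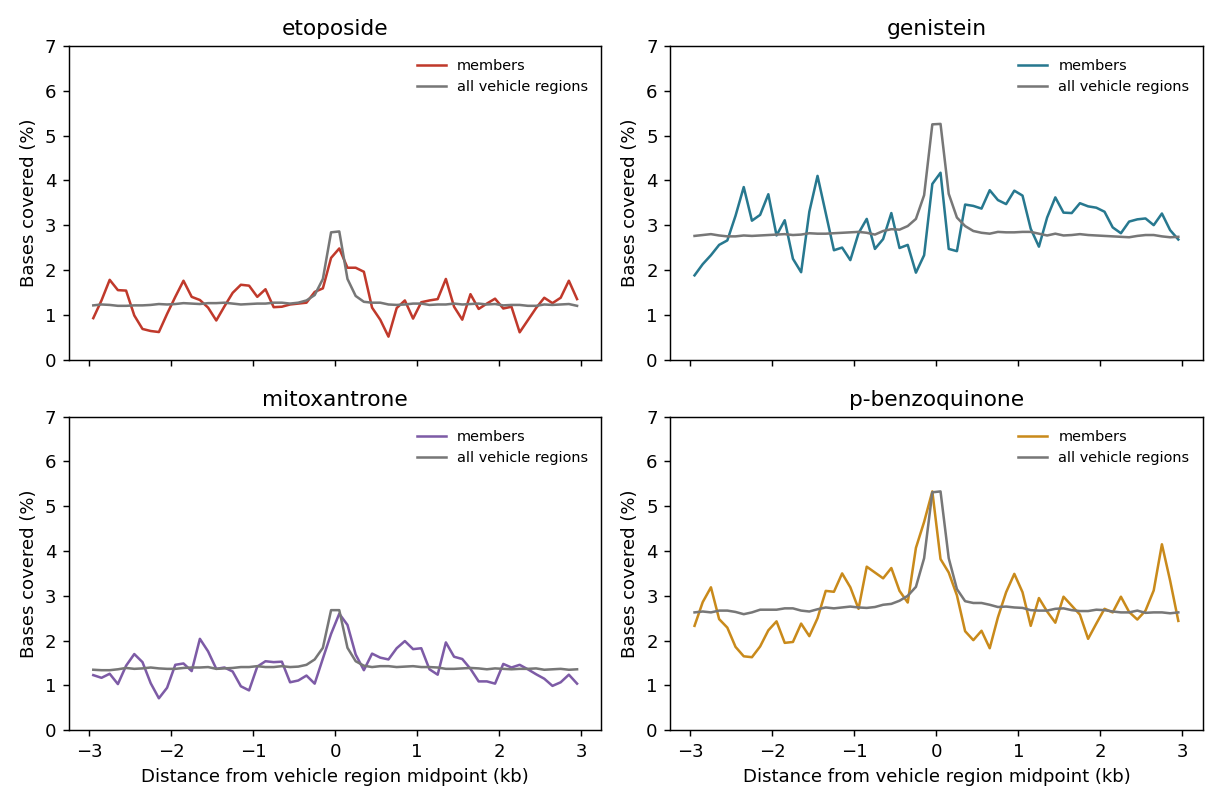
Percent of bases covered by regions of each poison list in 100 bp bins, by distance in kb from the midpoint of vehicle regions, for the members (coloured) and for all vehicle regions (grey). Each grey line has a narrow peak at the midpoint. The member lines, from 1000 places, are also higher there than on average in the flanks, but they vary more. Some genistein bins in the flanks come close to its cover at the midpoint.

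The second comparison asks where in the genome the strongest regions lay. They were spread much as the vehicle list is. Protein-coding gene bodies held 473 of them, or 47.3% (44.2 to 50.4), beside 47.5% of the vehicle list, and annotated genes of any kind held 63.9% beside 61.4%. Within 1 kb of either end of a protein-coding gene lay 24, or 2.4% (1.54 to 3.55), beside 2.83%, and within 5 kb lay 11.5% beside 11.4%. Stretches of at least 500 kb with no region in any list, which include unassembled parts such as centromeres, numbered 74. One member, or 0.1% (0.00253 to 0.556), lay within 100 kb of such a stretch beside 0.113%, and 2.3% lay within 1 Mb beside 2.22%. The number of other vehicle regions within 10 kb was 2.38 on average beside 2.45.

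Distances between members were set beside those between as many weaker regions. Another member lay within 10 kb of 14 of them, or 1.4%, and within 100 kb of 81, or 8.1%, while among the 1000 regions ranked next the numbers were 8 (0.8%) and 79 (7.9%). For the members the median distance to the nearest other member was 0.93 Mb. The closest pair lay 288 bp apart in SRGAP3, a gene for a GTPase-activating protein of neurons, with values of 72.08 and 65.66, and its second region is the one in the SRGAP3-AS2 window printed above. The next pairs were both on chromosome 15. One lay 577 bp apart in SEMA6D, an axon guidance gene, with values of 87.66 and 65.32. The other lay 2.29 kb apart outside TPM1, a tropomyosin gene, at 1.95 and 4.39 kb from it, with values of 73.10 and 72.42.

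Chromosome 15 held 46 members, 1.54 times its share of the vehicle list (interval 1.14 to 2.04), and 0.62 members per Mb of callable genome. The ratio did not hold under every ranking: it was 1.07 when regions were ranked by the sum of values per base, and 1.11 for the strongest 1000 fine-step regions. Chromosome 22 held 7, or 0.61 times its share (0.246 to 1.25). Chromosome 15 was the one chromosome of 22 whose interval left out 1, and the intervals are not adjusted for looking at 22. Against the regions ranked between the members and the 246907 lowest its ratio was 1.5, a comparison added after seeing the data. The mean input value of mitoxantrone regions on chromosome 15 was 0.476, inside the range of 0.341 on chromosome 13 to 0.533 on chromosome 7. 

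**Figure D5:**
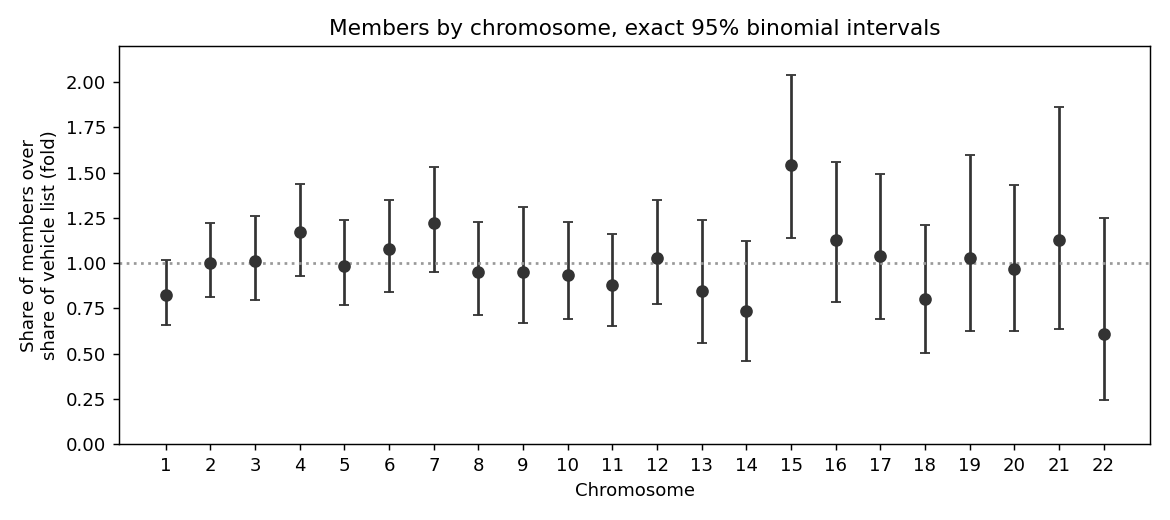
Share of the 1000 strongest regions on each chromosome divided by that chromosome's share of the vehicle list (fold, vertical axis), with exact 95% binomial intervals; the dotted line marks equal shares. Chromosome 15 lies at 1.54 with its interval above the line, and chromosome 22 is lowest at 0.61.

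By gene, the strongest regions were scattered thinly. A member lay in 454 of 19122 protein-coding genes, or 2.37%; 429 of these held 1 and 23 held 2. Hits followed gene length: the genes hit had a median length of 163.2 kb beside 24.5 kb over all genes. Of the 66 genes longer than 1000 kb, 28 held a member, at 0.374 members per Mb of gene beside 0.387 over all genes. Genes of 300 to 1000 kb had 0.431 per Mb, and the 5325 genes shorter than 10 kb had 0.239 on 6 members.

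The 2 genes with 3 members were PLD5 and STK3. PLD5, a phospholipase D family gene without known catalytic activity, spans 447.6 kb of chromosome 1 and held values of 93.73, 69.05 and 64.30, among 47 vehicle regions. The last of these met a genistein region of 15.78, and the others met no poison region. STK3, which encodes the Hippo pathway kinase MST2, spans 598.6 kb of chromosome 8 and held values of 84.59, 69.37 and 62.94, among 66 vehicle regions. The one at 69.37 met an etoposide region of 5.08 and a mitoxantrone region of 6.80. In each gene 1 of 3 members thus met a poison list, where 24.6% of all vehicle regions do.

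The gene lists chosen for leukaemia, K562 and control functions held 14 members in all. Leukaemia translocation genes held 3, in 3 of 22 genes (13.6% beside 2.37% of all genes), at 0.82 per Mb of gene beside 0.387, with a median gene length of 143 kb. Among them were CREBBP, a histone acetyltransferase gene (76.48), and AFF1, a KMT2A fusion partner (66.32), neither of which met a poison region. Of all vehicle regions 75.4% met none. The counts for leukaemia translocation genes rest on 3 regions and carry no test.

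Common fragile site genes, which are very long, held 4 members in 4 of 15 genes (26.7% beside 2.37% of all genes). Per Mb of gene this was 0.184 members, beside 0.387 over all genes. These were MACROD2 at 128.92, WWOX at 88.33 (met by a genistein region of 13.98), DLG2 at 68.37 and CSMD1 at 64.31. The MACROD2 region met a mitoxantrone region of 12.95. Neuronal and synaptic genes, also long, held 7 members in 5 of 17 genes (29.4%), at 0.342 per Mb beside the same 0.387. RBFOX1, a splicing regulator gene, had 2 members, at 115.41 and at 83.25, and the second met a p-benzoquinone region of 20.49. PTPRD, a receptor phosphatase gene, also had 2, at 86.61 and 62.95, and the second met a genistein region of 26.54. The presynaptic adhesion gene NRXN3 had 1 (63.96), and CSMD1 is in both lists. The T-cell and B-cell genes held 1, in the B-lymphoid kinase gene BLK (67.00), or 5% of 20 genes. Of all vehicle regions 24.6% met 1 or more poison lists, and these counts carry no test.

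No member lay in the 20 measured erythroid and K562-expressed genes, the 20 topoisomerase and repair genes, the 15 immediate early genes, the 15 histone genes, the 20 ribosomal protein genes or the 14 hepatocyte genes. These lists span little sequence, from 0.0324 Mb for the histone genes to 1.76 Mb for the repair genes. At the 0.387 members per Mb of all genes even the longest of them would hold under 1 member, so the 0 counts do not set them apart.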

How the data were processed

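The authors deposited 1 union list of regions per treatment (start, end and 1 or more values), with a score per region whose unit is not stated. Per the submitters' processing notes, the tools were Bowtie2 2.1.0 and SAMtools 0.1.19, with build hg38. The region caller was not given in the sources used here, nor was its threshold. The deposited mitoxantrone list also holds an input score, a log2 ratio of treated to input and, for some regions, a p-value; of these only the input score was used. Starts were read as counted from 0, as in BED files, and are printed counted from 1.

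The members and the gene lists were chosen with earlier results of these data known. Regions were ranked by their highest value on chromosomes 1 to 22. Named regions are the first 20, those in 3 or 4 poison lists and those over promoter windows; named genes hold these, or 3 or more members, or belong to a fixed list; some list genes are not reported here. The closest pairs, chromosomes 15 and 22, the microRNA, the example of joined values and the 2 regions shared with the strongest genistein regions were singled out after their values were seen. Gene spans, promoter windows and microRNAs are those of RefSeq (GRCh38.p14). Callable genome is 100 kb bins with a region in any of the 5 lists. Steps were fitted by the mean cosine of value over step. Shares have exact (Clopper-Pearson) 95% intervals on counts of regions. These cover counting error only, because each list is 1 pool without replicate values. Amplified reads that carry no molecular identifier cannot be counted as separate molecules. The depth of each library is unknown, since the lists hold called regions. Overlap and step fitting were tested on simulated data. Computation used pandas 2.3.3, numpy 2.4.6 and scipy 1.17.1 under Python 3.11.15, and plots used matplotlib 3.10.9.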

Additional observations from a re-analysis of the deposited data

How the results depend on the processing

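No paired analysis was possible because each list pools its libraries and carries no replicate values, and leaving out each replicate was not run for the same reason. Of the recomputed values 30 moved and 113 did not, a move being a value outside the interval of a share or ratio, beyond 1 SD for median percentiles, or over 1.5 times for counts and the mean input. Ranking by the sum of values kept 988 of the 1000 regions, and with X and Y included 972 remained. Ranking by the sum per base kept 458, and its regions overlapped at 2.4% for etoposide (vehicle list 4.97%), 4.8% for genistein (9.13%) and 6.3% for p-benzoquinone (9.3%), with 1 promoter window and a chromosome 15 ratio of 1.07. The strongest 1000 regions of the fine step, chosen after seeing the data, overlapped genistein in 11.1% and p-benzoquinone in 14.6%, with 10 promoter windows and a chromosome 15 ratio of 1.11; which property of that class goes with this was not tested.

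The vehicle list moved along with the members under most settings of overlap. With a 150 bp window at the midpoint the members' shares were 4.2% for etoposide (vehicle list 4.78%) and 7.9% for p-benzoquinone (9.01%). With poison values of at least 4 they were 4.1% (3.88%) and 6.9% (6.01%), and with at least 8 they were 3% (2.37%) and 3.4% (2.52%). With regions of at most 300 bp they were 3.87% for etoposide (4.72%) and 6.02% for genistein (8.78%), the latter with an interval of 4.37 to 8.05 that left out the vehicle share. Requiring 50% of the shorter region gave 7.2% for p-benzoquinone (6.63%). Wider definitions gave 63.9% in any annotated gene, 11.5% within 5 kb of a gene end, 2.3% within 1 Mb of an empty stretch and 8.1% within 100 kb of another member. The strongest 500 gave 1.2% near gene ends, 0% near empty stretches, 0% within 10 kb of one another, 1 promoter window and 7 members in the gene lists, and the strongest 2000 gave 7 windows and 28 such members. Wider definitions can only raise a share, and counts rise and fall with the number of regions taken. Such moves follow from the setting itself and are included in the number of moved values. Counting 1000 regions limits precision: the mitoxantrone share of 4.8% has an interval of 3.56 to 6.31.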

Other observations

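Pairs of poison lists met at the strongest vehicle regions in small numbers that can be set beside the vehicle list. Etoposide and mitoxantrone, both clinical leukaemia drugs, were the only lists at 7 members, or 0.7%. In the vehicle list they were the only lists at 702 of the 296907 regions, a smaller share and the fewest of any pair. Etoposide and p-benzoquinone were the only lists at 3 members, or 0.3%, beside 0.513%. The other pairs were at 0.4% to 0.9% beside 0.4% to 0.847%. These pairs were looked at after their values were seen and carry no test.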
